A study of Homo sapiens with 4 samples.

Results

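The Hippo pathway and the target genes of its effectors YAP and TAZ were followed through 36 genes, chosen by symbol and found as 36 of the 17791 rows of the deposited count table. Pathway components made up 21 of them: 7 coactivators and TEAD-side factors, 7 kinases and kinase adaptors, and 7 upstream scaffolds and junction regulators. The other 15 were reported YAP/TAZ target genes, of which 4 encode secreted, matrix or membrane-anchored extracellular proteins, 4 other surface or membrane proteins and 7 intracellular proteins. In this pathway the kinases STK3 and STK4, with the adaptor SAV1, activate LATS1 and LATS2, which work with MOB1A or MOB1B to phosphorylate the coactivators YAP (YAP1) and TAZ (WWTR1) and keep them out of the nucleus. When the coactivators are not phosphorylated they enter the nucleus, bind TEAD factors and drive target genes such as CCN1 and CCN2. Stiff matrix, cell spreading and cytoskeletal tension are known to favour the active state, and most of this control acts on the proteins rather than on the mRNA measured here.

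All 4 libraries came from PC-3, an established human prostate cancer line, grown together with BJ-5ta, a telomerase-immortalised human foreskin fibroblast line. In 3 libraries the cells had been encapsulated at 5 PC-3 cells to 1 BJ-5ta cell as engineered prostate cancer tissues (EPCaTs) in a gel of poly(ethylene glycol) joined to fibrinogen (PF), and RNA was taken on day 15. The gel was PF alone, PF+2%PEGDA or PF+3%PEGDA, where PEGDA, poly(ethylene glycol) diacrylate, was added to tune the mechanics of the gel. The fourth library was a 2D coculture of both lines, for which the labels give neither day nor cell ratio. Each EPCaT library pooled RNA from several tissues. With 1 library per group no spread between cultures could be estimated, so no difference between groups was tested. The 95% intervals given are exact Clopper-Pearson intervals and cover counting error only.

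Depth ranged from 13760301 to 15687894 counts per library, and levels are CPM, counts per 1000000 of the scaled library. To be called, a gene needed a difference of at least 2-fold (1 log2 unit, either way) and an interval that left out 0 on the log2 scale. The libraries differed in their marker genes. The summed level of 21 fibroblast markers was 3033, 3325 and 2793 CPM in the EPCaTs, given from here on in order of PEGDA, against 9737 CPM in 2D, and 14 of the 20 that could be tested were lower in all 3 EPCaTs. POSTN, the marker that was not tested, was at 0 CPM in both gels with PEGDA. The summed level of 16 epithelial markers was 6042, 6846 and 6444 CPM against 4339 CPM in 2D, with 5 of 16 higher in all 3 EPCaTs. Of all genes tested, 6.07% were lower and 7.84% higher in all 3 EPCaTs. CTNNA1, a junction gene deleted in PC-3 and so a marker of the fibroblasts, stood at 5.40, 6.18 and 8.29 CPM against 33.1 CPM. The summed level of 15 genes of G2 and M phase was 738, 511 and 269.9 CPM, against 189.9 CPM in 2D. Of 10 endothelial and blood markers, 4 could be tested and 3 of these were higher in all 3 EPCaTs; CDH5, PTPRC and CD3E were among those not analysed here, VWF was at 0 to 0.18 CPM, and PECAM1 and KDR were at 65.4 and 153.7 CPM in the PF EPCaT and at 7.15 and 22.0 CPM in 2D. CD68, the tested marker that was not higher, was at 53.3, 55.2 and 66.6 CPM against 118 CPM in 2D. Fewer cells of a type and less RNA per cell cannot be told apart in these bulk samples, and the part of these shifts in the results below was not tested.

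Many target genes stood lower in the EPCaTs than in 2D, and most pathway components did not. Against 2D, 7 of 15 targets (CCN1, FJX1, AXL, F3, ANKRD1, DLC1 and FOXF2) were called lower in all 3 EPCaTs, where 6.07% of the 14851 genes tested were, and 0 of 15 were higher, where 7.84% of genes were. In single EPCaTs 8, 7 and 8 of 15 targets were lower, where 12.0%, 9.45% and 10.4% of genes were, with median log2 ratios of -1.31, -0.73 and -1.17. Of 21 components 1, 2 and 3 were lower, and 1, 1 and 2 were higher, where 16.5%, 12.4% and 12.1% of genes were. In all 3 EPCaTs, 1 component was lower, AJUBA, and 1 higher, WWTR1. The median log2 ratio over the 3 EPCaTs was -1.08 for targets, 0.13 for components and 0.0041 for all genes tested. Targets therefore stood 1.21 log2 units below components (-1.2081), a difference given without a test. It rests on how the genes were split. AMOTL2, itself a reported target, was counted as a component only, as were AJUBA and LATS2. Whether other components are also targets was not examined here. The 2D library held the highest of the 4 levels for 12 of 15 targets and for 7 of 21 components, against 36.4% of all genes tested, and the lowest for 0 targets and 10 components, against 37.3%. The summed target level was 1098, 985 and 914 CPM against 1922.5 CPM in 2D, whereas the summed component level was 1887.5, 1871, 1943.5 and 1808 CPM. That component sum holds opposite shifts by role. Coactivators and TEAD-side factors summed to 914, 958 and 1013 CPM against 661 CPM in 2D. Upstream scaffolds and junction regulators summed to 485, 422 and 400 CPM against 691 CPM, and kinases and adaptors to 489, 491 and 530 CPM against 456 CPM.

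**Figure D1:**
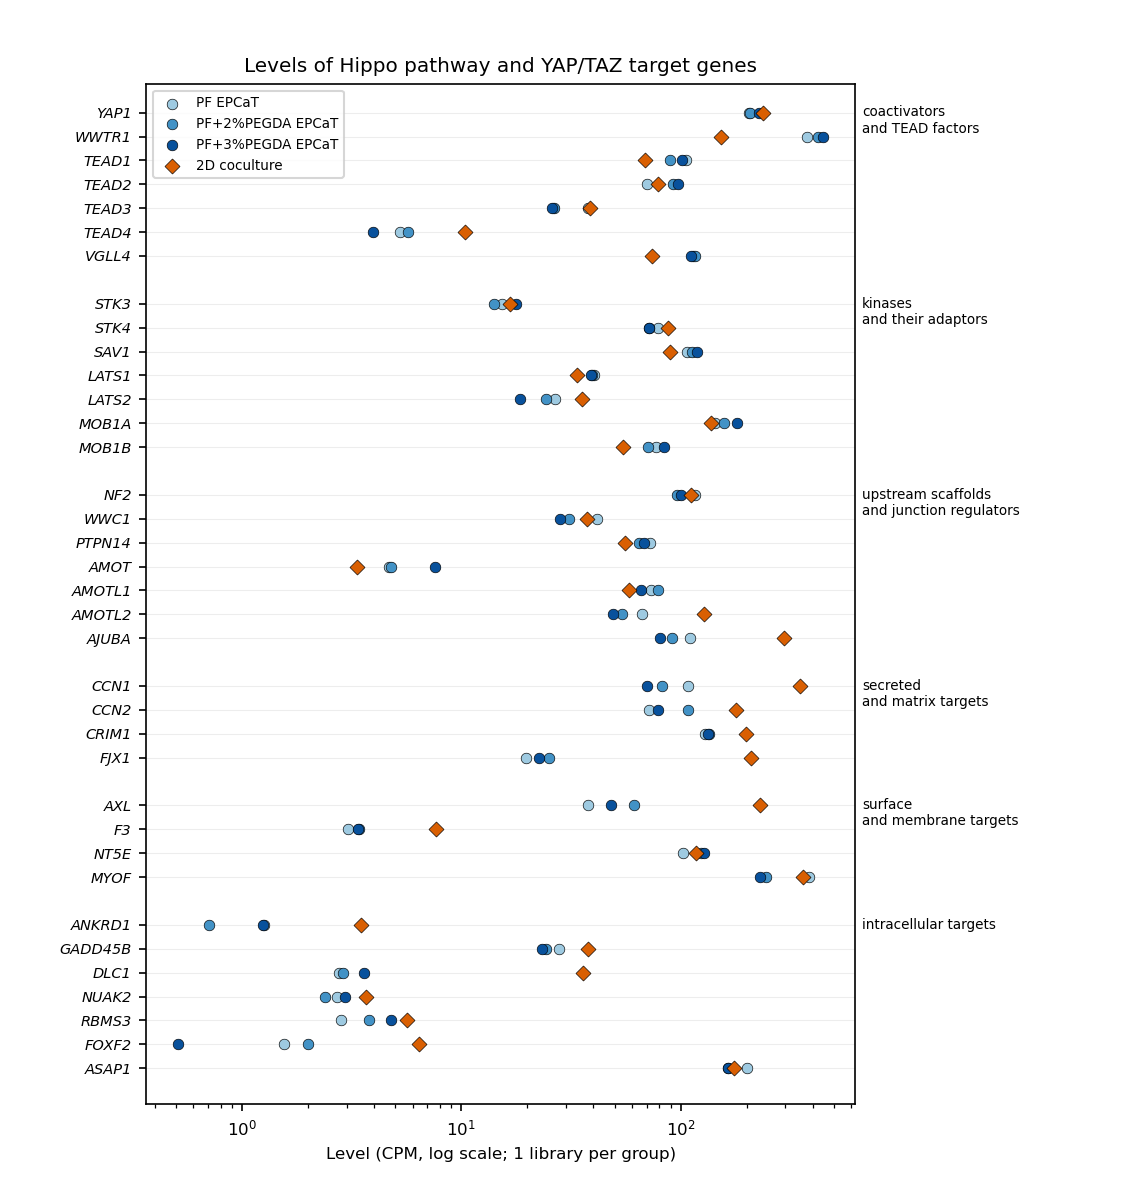
Level of each of the 36 genes in CPM on a log axis, grouped by role, with 1 point per library (blue circles for the 3 EPCaTs, orange diamonds for 2D). The 2D diamond lies to the right of all 3 circles for 12 of 15 targets, and to their left for WWTR1, where 153 CPM in 2D stands against 376 to 445 CPM.

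Promoters are shown where target genes stood lower together, to put the letters next to the values. Windows of 250 bases before the RefSeq start (GRCh38.p14) were matched by symbol for 29 of the 36 genes, and were searched on both strands for GGAATG, read CATTCC on the other strand, the core letters to which TEAD factors bind, and for TGANTCA, the letters of an AP-1 site, where N is any base. The components TEAD1, TEAD4 and STK3 and the targets CCN1, CRIM1, DLC1 and ASAP1 had no window. CCN1 and DLC1, both lower in all 3 EPCaTs, were therefore not searched. A single start per symbol was used, and for WWTR1 and VGLL4, among others, it lies inside the annotated gene. Some windows overlap annotated exons of this or another gene, by all 250 bases for YAP1 and by 189 for ANKRD1. The YAP1 match given next and the ANKRD1 match 128 bases before the start therefore lie in exons. GGAATG was found in 4 of 11 target promoters (36.4%), CCN2, ANKRD1, NUAK2 and FOXF2, and in 2 of 18 component promoters (11.1%), YAP1 and PTPN14. It was in 9.56% of 11452 promoters of tested genes and 11.9% of all 27305 promoters of that length. TGANTCA was found in 2 of 11 target promoters, F3 and ANKRD1, in 1 of 18 component promoters, MOB1B, and in 4.16% of those of tested genes. Below, 5′ to 3′ on the strand of the gene and cut before any annotated exon, are 3 targets that were lower in all or most EPCaTs and 1 component that was not, PTPN14. Capitals mark the motif letters. CCN2 (chr6:131951374-131951622, minus strand) holds GGAATG beginning 169, 104 and 95 bases before the start. FOXF2 (chr6:1389326-1389575, plus strand) holds it 196 bases before, PTPN14 (chr1:214551603-214551852, minus strand) holds it as CATTCC 200 bases before, and F3 (chr1:94541801-94542009, minus strand) holds TGANTCA 223 and 210 bases before.
CCN2: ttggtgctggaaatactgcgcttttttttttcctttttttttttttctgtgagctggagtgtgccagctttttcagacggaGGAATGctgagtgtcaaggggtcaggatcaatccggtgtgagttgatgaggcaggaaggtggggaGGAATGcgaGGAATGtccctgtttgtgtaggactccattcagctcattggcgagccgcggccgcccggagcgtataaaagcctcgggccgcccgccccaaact
FOXF2: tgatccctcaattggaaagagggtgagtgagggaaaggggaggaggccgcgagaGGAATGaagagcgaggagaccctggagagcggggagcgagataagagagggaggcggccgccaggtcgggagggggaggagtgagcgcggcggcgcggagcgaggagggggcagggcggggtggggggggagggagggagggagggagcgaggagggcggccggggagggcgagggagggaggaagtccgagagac
F3: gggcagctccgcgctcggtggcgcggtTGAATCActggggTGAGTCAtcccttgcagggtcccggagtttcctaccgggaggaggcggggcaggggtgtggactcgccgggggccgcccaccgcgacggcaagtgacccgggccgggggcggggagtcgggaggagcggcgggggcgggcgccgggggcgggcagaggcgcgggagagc
PTPN14: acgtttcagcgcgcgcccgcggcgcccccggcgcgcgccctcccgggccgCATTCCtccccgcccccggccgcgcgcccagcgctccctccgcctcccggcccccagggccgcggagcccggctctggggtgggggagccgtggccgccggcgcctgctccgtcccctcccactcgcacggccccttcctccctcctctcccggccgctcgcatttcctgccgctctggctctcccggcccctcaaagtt
A match describes letters and does not show that a factor binds there, and no match says only that the letters are not in this window. CCN2 with 3 matches was lower than in 2D by 1.66-fold to 2.50-fold, and was not called in PF+2%PEGDA. ANKRD1 with 2 was lower by 2.76-fold to 4.90-fold, and FOXF2 with 1 by 3.21-fold to 12.5-fold. NUAK2, which holds 2 as ANKRD1 does, and YAP1 and PTPN14, which hold 1 each as FOXF2 does, were not called in any EPCaT. FJX1 and AXL, with no match to GGAATG in their windows, were lower by 3.77-fold to 10.6-fold.

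Among the coactivators, WWTR1 and YAP1 differed in how they stood against 2D. WWTR1, which encodes TAZ (chr3:149517235-149736714, minus strand), was at 376 CPM in the PF EPCaT, 422 and 445 CPM in the gels with PEGDA, and 153 CPM in 2D. All 3 EPCaTs lay above 2D, by 2.45-fold (95% interval 2.33 to 2.57), 2.75-fold and 2.90-fold. YAP1 (chr11:102110461-102233423, plus strand) was at 205, 207, 229 and 237 CPM in the same order, so its 2D level was the highest of the 4 but by no more than 1.16-fold. Of the reads counted for the 2 coactivators, WWTR1 took 64.75% in PF (63.8% to 65.7%), 67.1% and 66.05% with PEGDA, and 39.3% in 2D (38.1% to 40.6%). This share does not depend on the scaling between libraries. Per length of the longest annotated transcript, the level of WWTR1 was 74.7, 83.8 and 88.4 CPM per kb in the EPCaTs, the highest of the 36 genes in each, and 30.5 CPM per kb in 2D, where it ranked 10. That of YAP1 was 37.9, 38.3, 42.3 and 43.9 CPM per kb. An antisense gene on the other strand, WWTR1-AS1, shares 11.7% of the exonic length of WWTR1 and was at 0.0644 to 0.42 CPM, and the library kit does not keep strand.

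The TEAD factors, the DNA-binding partners of YAP and TAZ, did not all stand on the same side of 2D. TEAD1 was at 105, 89.3 and 101 CPM against 68.9 CPM in 2D, so all 3 were above 2D, by log2 ratios of 0.37 to 0.61. TEAD4 was at 5.28, 5.73 and 3.96 CPM against 10.4 CPM, below 2D in all 3 and past the rule only in PF+3%PEGDA, with a log2 ratio of -1.38 (-1.86 to -0.93) from 54 and 152 counts. TEAD3 was at 37.8 CPM in PF and 38.8 CPM in 2D, and lower in both gels with PEGDA, at 26.3 and 25.8 CPM. TEAD2 went the other way between gels, from 70.6 CPM in PF to 92.1 and 97.4 CPM with PEGDA, with 2D between them at 78.5 CPM. Per kb of the longest annotated transcript, TEAD2 was the most abundant of the family in every library. It made up 50.6%, 62.4%, 63.5% and 54.1% of the summed TEAD level. That sum stayed at 57.15 to 62.8 CPM per kb in the 3 EPCaTs and 59.4 in 2D. This ranking depends on the lengths used, 8477 bases for TEAD1 and 2440 for TEAD2. In CPM, TEAD1 was above TEAD2 in PF and PF+3%PEGDA. VGLL4, which competes with YAP for TEAD, was at 114, 116 and 112 CPM against 73.8 CPM, 1.51-fold to 1.57-fold higher in the 3 EPCaTs and short of the rule. The antisense gene ATG7 covers 31.5% of its exonic length, at 64.8 to 74.2 CPM, so reads of the 2 genes cannot be told apart there.

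No kinase or kinase adaptor, of 7, was called in any EPCaT against 2D. STK4, the MST1 kinase, was at 78.6, 71.6 and 71.4 CPM against 87.9 CPM, and STK3, the MST2 kinase, at 15.3, 14.0, 17.8 and 16.7 CPM. The levels of the scaffold SAV1, at 107, 113, 119 and 89.3 CPM, and of the adaptor MOB1B, at 77.0, 71.1, 84.2 and 54.8 CPM, were lowest in 2D. MOB1A was also lowest there, at 138 CPM against 144, 158 and 180.2 CPM. LATS1 was at 40.25, 39.3, 39.1 and 33.7 CPM. LATS2, the other LATS kinase, was highest in 2D, at 35.7 CPM, and lower in each gel, at 26.8, 24.4 and 18.5 CPM. The log2 ratio of LATS2 was -0.95 (-1.17 to -0.73) in PF+3%PEGDA, just short of the rule. LATS2 took 40.0% of the reads of the LATS pair in PF, 38.3% and then 32.1% (28.8% to 35.5%) with PEGDA, and 51.5% in 2D (48.4% to 54.6%). STK4 took 80.1% to 83.7% of the reads of its pair in the EPCaTs and 84.05% in 2D.

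**Figure D2:**
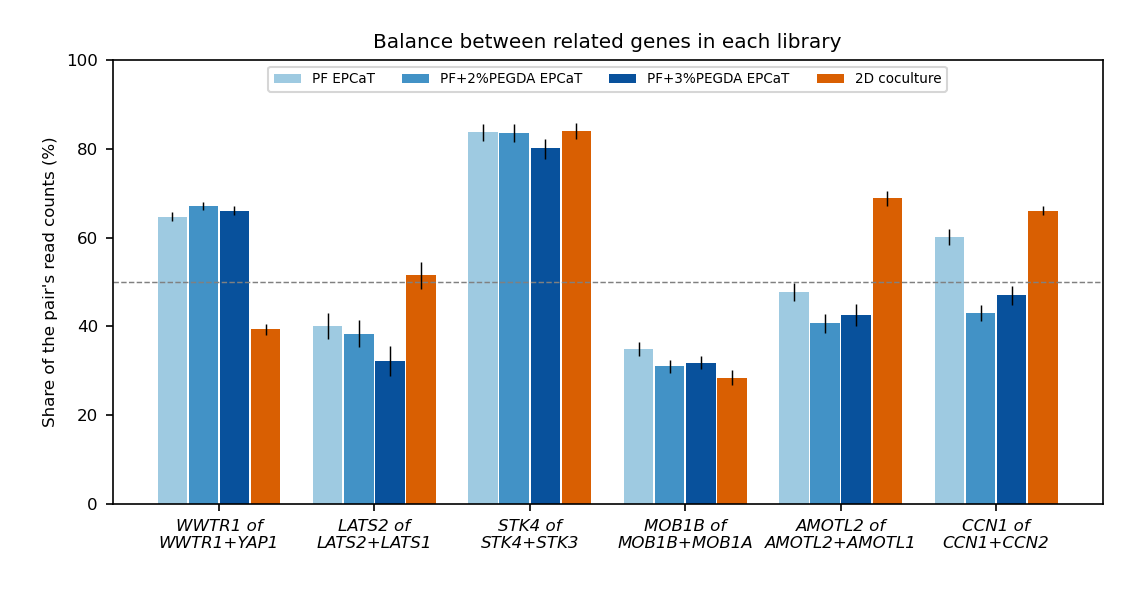
Share of reads taken by 1 member of each pair of related genes, in percent, in each of the 4 libraries, with exact 95% binomial intervals. WWTR1 takes 64.75% to 67.1% of the coactivator reads in the EPCaTs and 39.3% in 2D, while AMOTL2 takes 40.7% to 47.75% and 68.9%.

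Of the upstream scaffolds, 1 was lower in all 3 EPCaTs. AJUBA, a LIM protein that binds LATS kinases at junctions under tension (chr14:22971174-22982642, minus strand), was at 111, 91.6 and 80.7 CPM against 297 CPM in 2D. It was 2.68-fold (2.54 to 2.83), 3.24-fold and 3.675-fold (3.44 to 3.93) lower, the largest difference of any component. AMOTL2, an angiomotin that holds YAP in the cytoplasm and is itself a reported target, was at 66.7, 54.2 and 49.1 CPM against 128 CPM. Its log2 ratio was -0.94 in PF, short of the rule, and -1.24 and -1.38 in the gels with PEGDA, past it. Its relative AMOTL1 was lowest in 2D, at 58.0 CPM against 73.0, 79.2 and 66.0 CPM. AMOTL2 took 47.75% of the reads of the pair in PF, 40.7% and 42.6% with PEGDA and 68.9% in 2D. AMOT, the angiomotin of lowest level, was at 4.68, 4.77 and 7.56 CPM against 3.34 CPM and was past the rule in PF+3%PEGDA alone, at 2.26-fold (1.60 to 3.25) from 103 and 49 counts. The membrane scaffold NF2 (merlin) was at 116, 96.7, 99.9 and 112 CPM, WWC1 (KIBRA) at 41.6, 30.9, 28.3 and 37.6 CPM, and the phosphatase PTPN14 at 72.8, 64.3, 68.2 and 55.9 CPM. None of these 3 was called.

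Among the 4 targets grouped as secreted and matrix, CRIM1 included, 2 were lower in all 3 EPCaTs. CCN1 (CYR61), a matricellular ligand of integrins (chr1:85580761-85583962, plus strand), was at 108, 81.9 and 70.0 CPM against 349 CPM in 2D. It was 3.23-fold (3.06 to 3.40), 4.26-fold and 4.99-fold (4.65 to 5.35) lower, with every EPCaT well under 2D. CCN2 (CTGF), its relative, was at 71.7, 108 and 78.9 CPM against 179 CPM, past the rule in PF (2.50-fold lower) and PF+3%PEGDA (2.27-fold) and short of it in PF+2%PEGDA (1.66-fold). CCN1 took 66.1% of the reads of the pair in 2D and 60.15% in PF, and 43.1% and 47.0% in the gels with PEGDA, so CCN2 was the more abundant of the pair in those 2 libraries by reads. FJX1, the four-jointed homologue, a secreted protein (chr11:35618419-35620868, plus strand), was at 19.7, 25.2 and 22.7 CPM against 209 CPM, which is 8.31-fold to 10.6-fold lower. CRIM1, a membrane-anchored BMP binder, was at 129, 134 and 133 CPM against 199 CPM, lower by 1.48-fold to 1.54-fold and short of the rule in all 3. Per kb, CCN1 ranked the highest of the 36 genes in 2D at 152.5 CPM per kb and FJX1 next at 85.4, while in the PF EPCaT WWTR1 was the highest, CCN1 was at 47.3 CPM per kb and FJX1 at 8.055.

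Among the surface targets, AXL and F3 were lower in all 3 EPCaTs and NT5E and MYOF were not called. AXL, a receptor tyrosine kinase (chr19:41219203-41261766, plus strand), was at 37.9, 61.3 and 48.1 CPM against 231 CPM, or 6.10-fold, 3.77-fold and 4.80-fold lower. F3, tissue factor, was much scarcer, at 3.06, 3.41 and 3.38 CPM (46 to 53 counts) against 7.63 CPM (112 counts), and was 2.23-fold to 2.49-fold lower. NT5E (CD73), which makes adenosine, was at 103, 124 and 128 CPM and at 117 CPM in 2D. MYOF, a membrane-repair protein, was at 386 CPM in PF and 362 CPM in 2D, and at 246 and 230.2 CPM with PEGDA. NT5E and MYOF thus had 2D between the EPCaTs, in opposite order.

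Among the 7 intracellular targets, DLC1, ANKRD1 and FOXF2 were lower in all 3 EPCaTs. DLC1, a GTPase-activating protein, was at 2.76, 2.90 and 3.60 CPM against 35.9 CPM, between 9.99-fold and 13.01-fold lower, and no target differed by more in the PF and PF+2%PEGDA EPCaTs. ANKRD1, a nuclear ankyrin-repeat protein used as a readout of YAP activity, was at 1.26, 0.709 and 1.25 CPM (21, 11 and 17 counts) against 3.47 CPM (51 counts), so the fold of 4.90 in PF+2%PEGDA had an interval of 2.52 to 10.4. FOXF2, a forkhead factor, was at 1.56, 2.00 and 0.514 CPM (26, 31 and 7 counts) against 6.40 CPM (94 counts). It was 4.11-fold, 3.21-fold and 12.5-fold lower, the last with an interval of 5.82 to 31.9. RBMS3, an RNA-binding protein, was at 2.82, 3.80 and 4.77 CPM against 5.65 CPM, and its log2 ratio in PF, -0.996 (-1.55 to -0.47), stood just short of the rule. GADD45B was at 27.8, 24.4 and 23.3 CPM against 37.8 CPM, the kinase NUAK2 at 2.70, 2.38 and 2.93 CPM against 3.68 CPM, and ASAP1, an Arf GTPase-activating protein, at 201, 164 and 164 CPM against 175 CPM. None of these 4 was called.

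**Figure D3:**
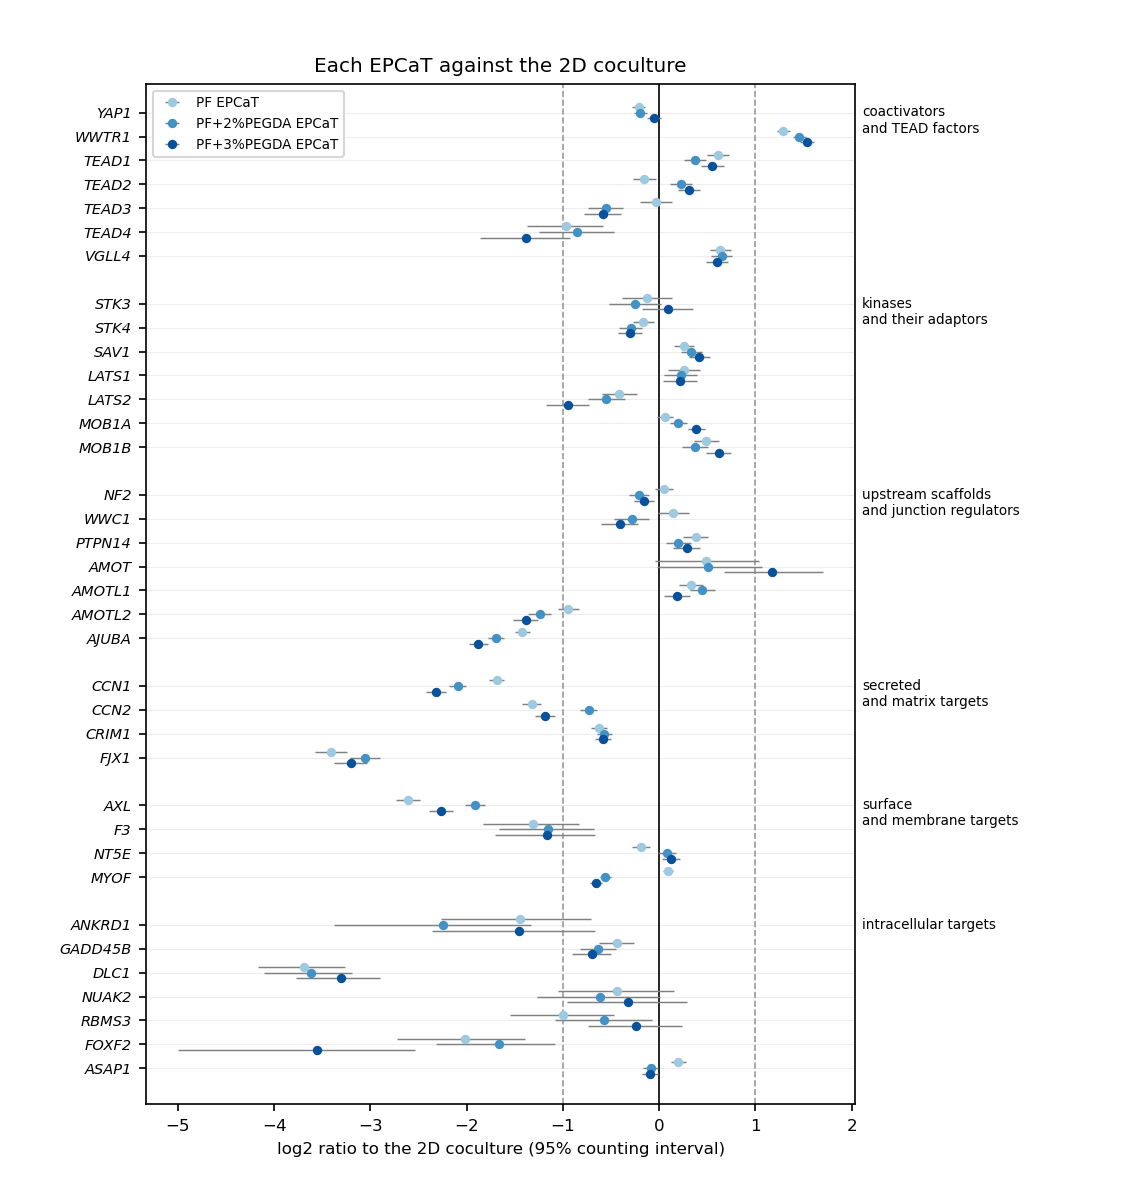
log2 ratio of each EPCaT to 2D for the 36 genes, grouped by role, with 95% counting intervals and dashed lines at -1 and 1. Of the 15 targets, 7 have all 3 points beyond the dashed line at -1, AJUBA is the only component to do so, and only WWTR1 has all 3 beyond 1.

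Fibroblast markers were lower in the same EPCaTs. The log2 ratio of CTNNA1 was -2.61, -2.41 and -1.99. In PF and PF+2%PEGDA, 2 of 15 targets (DLC1 and FJX1) lay below it, in PF+3%PEGDA 5 of 15 did (DLC1, FJX1, AXL, CCN1 and FOXF2), and 0 of 21 components did in any. Without collagens, the 13 fibroblast markers summed to 192, 215 and 245 CPM against 503 CPM. PDGFRB, which marks fibroblasts and pericytes, was at 16.6, 16.4 and 10.7 CPM against 148 CPM, PDGFRA at 19.7, 20.4 and 24.9 CPM against 17.4 CPM, and the epithelial cadherin CDH1 at 421, 392 and 377 CPM against 172 CPM. The lowest log2 ratio of the fibroblast markers without collagens, that of PDGFRB, was -3.16, -3.17 and -3.78. DLC1 and FJX1 lay below it in PF, DLC1 alone in PF+2%PEGDA and no target in PF+3%PEGDA. In single markers, therefore, the fibroblast side was not uniform, and the number of targets below a marker depended on the marker. Their part in the target levels was not tested.

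Between the gels, no component was called in any of the 3 pairs and 1 target was. The background of called genes was 2.98% higher and 5.56% lower in PF+2%PEGDA against PF, 3.63% and 7.51% in PF+3%PEGDA against PF, and 1.85% and 2.41% in PF+3%PEGDA against PF+2%PEGDA. FOXF2 was lower in PF+3%PEGDA than in PF, with a log2 ratio of -1.54 (-3.05 to -0.36), and than in PF+2%PEGDA, with -1.89 (-3.39 to -0.75), from the 7 counts given above. The median log2 ratio of PF+3%PEGDA against PF was 0.12 for targets and -0.06 for components, and that of PF+2%PEGDA against PF was 0.07 and -0.12 (-0.1151). For PF+3%PEGDA against PF+2%PEGDA it was -0.02 and 0.05. No member was called in order with PEGDA, where 0.929% of genes were called higher in order and 2.23% lower.

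By the interval alone, with no fold rule, several genes stepped the same way at both PEGDA additions. WWTR1 and MOB1A were higher at both steps and AJUBA lower, of 21 components, and CCN1 and MYOF were lower at both, of 15 targets. Of all genes tested, 7.97% were higher and 6.62% lower at both, so such steps were not particular to these members. The steps were small. CCN1 in PF+3%PEGDA was lower than in PF by a log2 ratio of -0.63 (-0.74 to -0.52), MYOF by -0.75 (-0.81 to -0.68), AJUBA by -0.45, and WWTR1 was higher by 0.24. CCN2 and AXL did not step in order: each was highest of the gels in PF+2%PEGDA, with log2 ratios to PF of 0.59 (0.48 to 0.70) and 0.69 (0.55 to 0.84), and then lower in PF+3%PEGDA. Thus CCN1 and CCN2, close relatives, differed in direction between PF and PF+2%PEGDA. By the interval alone, 4 components and 4 targets were higher and 8 components and 3 targets lower in PF+2%PEGDA against PF, where 29.9% of all genes were higher and 29.2% lower, so such a step is common in these libraries. In PF+3%PEGDA against PF, 7 components and 4 targets were higher and 8 and 5 lower, against 32.0% and 31.8% of all genes. In PF+3%PEGDA against PF+2%PEGDA, 7 components and 0 targets were higher and 4 and 5 lower, against 20.1% and 19.5%.

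**Figure D4:**
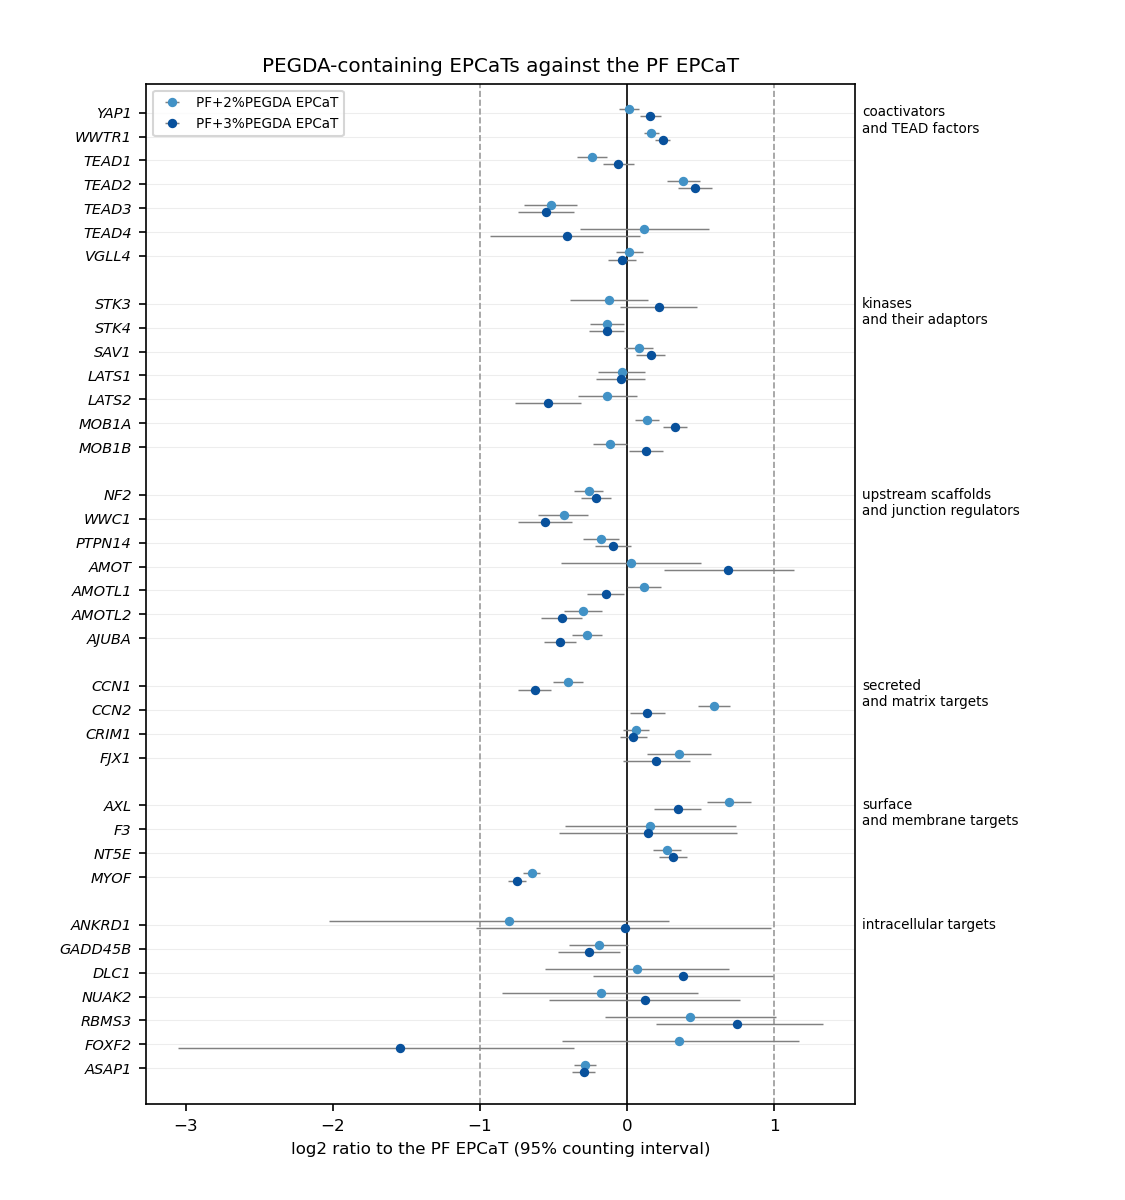
log2 ratio of PF+2%PEGDA and PF+3%PEGDA to PF for the 36 genes, with 95% counting intervals and dashed lines at -1 and 1. FOXF2 in PF+3%PEGDA, at -1.54 from 7 counts, is the only point beyond a dashed line.

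Other genes of the pathway were read from a list. Of 28 tested of 29 other components, 2 were higher in all 3 EPCaTs and 4 were lower, with a median log2 ratio of 0.05. As shares these were 7.14% and 14.3%, against 7.84% and 6.07% of all genes tested, so the share higher was near that of all genes. Those higher were the kinase TNIK, at 21.7, 19.005 and 15.6 CPM against 6.74 CPM, and the TEAD cofactor VGLL1, at 8.16, 7.92 and 7.56 CPM against 2.66 CPM. Those lower were the kinase MAP4K4, at 236, 254 and 275 CPM against 580.05 CPM, the LIM protein WTIP, a relative of AJUBA, at 2.10, 3.87 and 2.20 CPM against 8.58 CPM, the atypical cadherin FAT4, at 2.28, 1.48 and 2.20 CPM against 9.61 CPM, and the TEAD cofactor VGLL3, at 2.70, 3.48 and 3.74 CPM against 8.17 CPM. Of 11 other reported targets, 1 was higher in all 3 (9.09%), EDN1, at 10.5, 11.1 and 9.91 CPM against 4.56 CPM. Among those lower in all 3 were TGFB2, at 66.3, 49.99 and 48.6 CPM against 191 CPM, and THBS1, at 124, 133 and 131 CPM against 285 CPM. The list was mixed: the mean log2 ratio over the 3 EPCaTs was below 0 for 7 of the 11 and not below 0 for 4. Its median was -0.74, against 0.0041 for all genes tested. Between the gels, the growth factor AREG was lower in PF+3%PEGDA than in PF, at 20.1 and 43.1 CPM, and the adhesion protein AMIGO2 was higher, at 95.3 and 41.6 CPM. Each was 1 of the 11 other targets, where 7.51% of all genes tested were lower and 3.63% higher.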

How the data were processed

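The authors deposited 1 table of expected counts, estimated read counts per gene that were not scaled between libraries. Per the submitters' processing notes it involved FastQC, STAR, Partek and the hg38 build; versions, annotation and counting method are not given in the sources used here. Between 18.2% and 19.9% of values in a library were not whole (tolerance 0.01), and values were rounded. Genes with at least 1 CPM of the total count in 1 or more libraries were kept (14851). edgeR 4.0.16 in R 4.3.3 gave TMM scaling factors, and log2 ratios used a prior count of 0.5; folds are plain ratios of levels. The scripts, which used Python 3.11.15, scipy 1.17.1, numpy 2.4.6, pandas 2.3.3 and matplotlib 3.10.9, were tested on simulated data. All 36 members are named; other pathway genes are named where called in all 3 EPCaTs or in PF+3%PEGDA against PF, except for an item that is not reported here. The members and lists were chosen with earlier results of these data known. Gene positions and lengths are from GENCODE release 29 on GRCh38. Where 1 count is 0.06 to 0.0734 CPM, genes of few counts have wide intervals. The alternatives tried were total counts, size factors from DESeq2 1.42.0, no filter, a 5 CPM filter, a prior count of 2, and removal of the trend with transcript length and GC content. PCR reads without molecular identifiers are not independent molecules.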

Additional observations from a re-analysis of the deposited data

Results flagged for a closer look

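In 7 of the 36 genes the EPCaTs lay on both sides of the shared 2D library. For 4 of them an EPCaT was above it and another below it, each with a counting interval that left out 0, which did not hold for STK3, NF2 and WWC1. The difference between the EPCaTs' ratios was not tested. For TEAD2 the log2 ratio to 2D was -0.15 in PF, 0.23 in PF+2%PEGDA and 0.31 in PF+3%PEGDA. For NT5E it was -0.19, 0.08 and 0.12 in the same order. MYOF went the other way, with 0.09, -0.56 and -0.65. ASAP1 did so by less, with 0.20, -0.09 and -0.09. None of these ratios reached the 2-fold rule, and the ratios share the 2D library.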

How the results depend on the processing

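No paired analysis was possible because each group has 1 library, and for the same reason none could be left out. Under total counts in place of the scaling, the median log2 ratio over the 3 EPCaTs against 2D was 0.25 for components and -0.96 for targets, while the median of all genes tested moved to 0.20 in PF and 0.12 in PF+2%PEGDA. Once a trend with GC content and transcript length was taken out, 2 components were lower in all 3 EPCaTs, AMOTL2 having joined AJUBA, and targets minus components was -1.08 for the EPCaTs against 2D, and 0.0569 where PF+3%PEGDA was set against PF. The cause was not tested. Of 216 calls of a member in a pair of libraries, RBMS3 in PF against 2D became lower under DESeq2 size factors and under the trend removal, AMOTL2 in PF against 2D under the trend removal, and 0 changed under total counts or a prior count of 2. All other medians and counts of components and targets moved by less than the limit set for them. Single ratios moved more often. Of the 216, 53 left their counting interval under total counts and 51 under the trend removal. In PF against 2D, the log2 ratio of WWTR1 went from 1.29 to 1.47 under total counts and to 1.16 under the trend removal. That of YAP1 went from -0.21 to -0.03 and to -0.36. Depth limits genes of few counts, such as FOXF2 and ANKRD1, with 7 and 11 counts in their lowest library.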
